A study of Mus musculus with 14 samples.

Results

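Fatty acid oxidation and peroxisome genes were followed through the differentiation of 3T3-L1 cells, a mouse preadipocyte line that turns into fat cells when treated with a hormone mixture. The members were a list of 33 genes chosen by name, 18 of mitochondrial fatty acid oxidation, 3 enzymes found in both organelles, 4 peroxisomal enzymes and 8 peroxins. Of these, 32 were among the 18193 genes of the series that had a probe set of their own, and 31 were among the 8682 genes bright enough to test, meaning that 3 or more of the 14 arrays read at least 50. Cpt1b, a carnitine palmitoyltransferase, was only on a probe set shared with other genes and has no value here. Ehhadh, the peroxisomal bifunctional enzyme, did not pass and ran from 0.2 to 31.3, its highest value being the empty virus array at 192 h.

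One arm of the cultures was transduced with an empty virus and the other with a retrovirus that carries the coding sequence of mouse SETD5 behind a weak LTR promoter, with a V5 tag. Each arm gave 1 array at 0, 12, 24, 36, 48, 96 and 192 h, so 7 arrays per arm. All cells received insulin, dexamethasone and isobutylmethylxanthine for the first 48 h and insulin alone afterwards. The study asked how SETD5, a protein that works with corepressors of transcription, bears on fat cell differentiation. No hour had a replicate within an arm. The hours therefore stand in for replicates, p-values measure only the spread between hours, and SETD5 cannot be told apart from any other difference between the transduced lines. The main Setd5 probe set did not separate the arms (249.4 to 377.5 with empty virus, 239 to 350.1 with SETD5 virus, late log2 difference 0.05 ± 0.08 SE, limma adjusted p = 0.690). Where its probes lie relative to the viral coding sequence was not analysed here, so it is no check of the labels.

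Mitochondria break fatty acids down in a cycle. The carnitine shuttle brings the acyl chain in, acyl-CoA dehydrogenases take the first electrons, the trifunctional protein and its companions finish the round, and the electron transfer flavoprotein hands the electrons to the respiratory chain. Peroxisomes shorten chains that mitochondria handle poorly and destroy the hydrogen peroxide that results, and peroxins build, supply and divide them. Both organelles are known to become more abundant as fat cells mature, and the nuclear receptor PPAR gamma, the master regulator of that process, binds a direct repeat of AGGTCA with 1 base between the copies.

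Start-site sequences of 4 members are shown: Pex11a and Cat for their mature rise with empty virus, the largest of the members, Hadhb because Hadha starts from the same stretch, and Slc25a20 for its motif match. Sequences are from RefSeq (GRCm38.p6), read along the gene's own strand, and each of the first 3 is the 250 bases up to the start. Capitals mark a match to the direct repeat of AGGTCA with 1 free base between the copies, searched on both strands with at most 2 mismatches at its 12 fixed bases, in 250 bases before to 50 after each start. Pex11a lies on the reverse strand (chr7:79743132-79743381) and this window held no match. The Hadhb stretch (chr5:30155003-30155252) lies between the starts of Hadha and Hadhb, which sit head to head with 272 bases between them, and held none. The catalase gene Cat lies on the reverse strand (chr2:103485154-103485403) and held 1 match, which begins 204 bases before the start. The match of Slc25a20 is shown alone (chr9:108662142-108662154, just after its start).
Pex11a: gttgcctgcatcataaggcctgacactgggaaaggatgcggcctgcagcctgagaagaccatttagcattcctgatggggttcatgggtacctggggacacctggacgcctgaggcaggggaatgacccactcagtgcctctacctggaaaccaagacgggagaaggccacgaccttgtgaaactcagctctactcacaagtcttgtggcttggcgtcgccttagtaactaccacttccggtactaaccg
Hadhb: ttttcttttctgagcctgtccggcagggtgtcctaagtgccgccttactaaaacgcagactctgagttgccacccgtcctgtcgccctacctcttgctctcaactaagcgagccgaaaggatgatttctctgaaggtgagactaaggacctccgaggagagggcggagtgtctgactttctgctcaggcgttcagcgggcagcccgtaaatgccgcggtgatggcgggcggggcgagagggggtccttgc
Cat: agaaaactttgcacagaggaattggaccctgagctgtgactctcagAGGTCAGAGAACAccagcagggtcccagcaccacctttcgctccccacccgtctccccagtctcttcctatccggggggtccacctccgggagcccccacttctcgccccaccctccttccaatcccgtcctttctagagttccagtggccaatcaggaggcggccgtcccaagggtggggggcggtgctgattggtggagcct
Slc25a20: AGGTGAAAGGTCG
The promoter table held 27 members, and 4 of them had a match (Echs1, Etfa, Slc25a20 and Cat), or 4 of 30 member promoters against 3.86% of all 32851 promoters of that length. Of the 4 genes with a match, Cat and Etfa rose in the empty virus arm, and Echs1 and Slc25a20 did not pass there. A match is a description of these letters only.

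As the cells matured, most members passed the test for a rise with empty virus, and none did with SETD5 virus. Comparing the 96 and 192 h arrays with the 0, 12 and 24 h arrays of the same arm, 22 of 31 members were called higher with empty virus (limma, Benjamini-Hochberg adjusted p under 0.05 over all tested genes) and none lower. Over all tested genes 5.25% were called higher and 3.29% lower. The median log2 difference of the members was 1.19, against -0.02 for all tested genes. They comprised 14 of 17 mitochondrial genes, 2 of 3 enzymes of both organelles, 2 of 3 peroxisomal enzymes and 4 of 8 peroxins.
With SETD5 virus, the same comparison called none of the 31 members, where 0.184% of all tested genes were called. At an unadjusted limma p under 0.05 there were 10 members and 1429 of the 8682 tested genes. Of the 31 members, 1 had a negative difference there, and the median was 0.39, against 0.02 for all tested genes. The difference between the arms in this change passed for no gene at all, 0.00% of those tested. At an unadjusted p under 0.05 there were 18 of the 31 members and 490 of all tested genes. That difference between the arms was negative for 29 of 31 members, with a median of -0.76. Without the 192 h arrays, which leaves 1 mature array per arm, only Acads and Pex11a were still called with empty virus (0.910% of tested genes), while the median difference was 1.02. Without the 0 h arrays, 7 members were called higher with SETD5 virus, where 13.8% of all tested genes were.

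**Figure D1:**
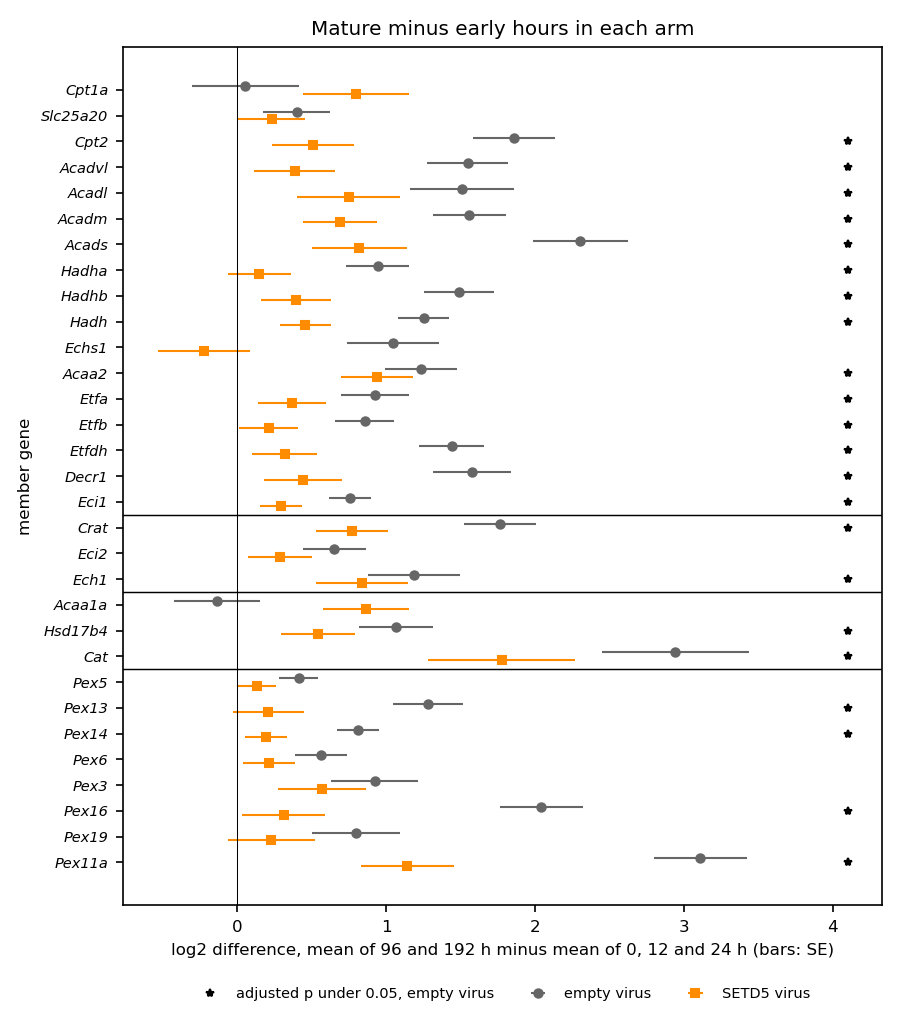
Log2 difference of the mean of 96 and 192 h minus the mean of 0, 12 and 24 h for each of 31 member genes (rows), in the empty virus arm (grey circles) and the SETD5 virus arm (orange squares). Bars are limma's SE, stars mark the 22 members called higher with empty virus, and horizontal lines divide mitochondrial genes, enzymes of both organelles, peroxisomal enzymes and peroxins. Cpt1a and Acaa1a are the members whose SETD5 virus point lies right of the empty virus point.

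The late effect of SETD5 virus was the log2 difference from empty virus at the same hour, over 36, 48, 96 and 192 h. It was negative for 29 of 31 members, with a median of -0.37 against 0.04 for all tested genes. Only 6 members were called lower and none higher, where 4.56% of all tested genes were called lower and 7.43% higher. They were Pex11a, Pex16 and Pex13 of the peroxins, Crat of both organelles, and Cpt2 and Eci1 of the mitochondria. Another 7 missed by little, with adjusted p from 0.0523 to 0.0634 (Hadh, Etfdh, Echs1, Acads, Decr1, Hsd17b4 and Etfb). Over all 7 hours no member was called, with 3.62% of all tested genes called. At an unadjusted limma p under 0.05 there were 8 members and 2046 of the 8682 tested genes. In the early hours, 0 to 24 h, no member was called, with 0.0230% of tested genes called. No member had an unadjusted p under 0.05 there, and 540 of all tested genes did. Late minus early called no member, with 0.0230% of tested genes called. At an unadjusted p under 0.05 it had 11 members and 1090 of all tested genes.
The count depended on which hours were taken as late. With 96 and 192 h alone, 23 of 31 members were called lower, where 11.4% of all tested genes were, and late minus early called 16 lower against 6.19%, and 1 higher (Acaa1a) against 4.37%. With 48 to 192 h, which is also the comparison without the 36 h pair, 16 were called lower against 9.23%. Without the 96 h pair only Pex16 remained called (1.07% of tested genes), and without any other pair that left 36 h in place (0, 12, 24, 48 or 192 h) 3 members were, Pex11a, Pex16 and Crat, where 1.74% to 2.87% of tested genes were.

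Hour by hour, the arms parted late. The median log2 difference between the arms over the 31 members started at 0.06 (0 h) and went through -0.04 (12 h), 0.01 (24 h) and -0.05 (36 h). From there it dropped to -0.28 at 48 h, -0.33 at 96 h and then -0.94 for the last pair, while the median over all tested genes stayed between 0.00 and 0.12. At 48 h each of the 31 members was lower with SETD5 virus, though none over 2-fold (0.415% of tested genes), where 50.5% of all tested genes were lower. At 96 h 26 were lower, 3 of them over 2-fold against 1.67% of tested genes. At 192 h 29 were lower, 13 of them over 2-fold against 4.52%. These are counts over 1 pair of arrays per hour, with no test.

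**Figure D2:**
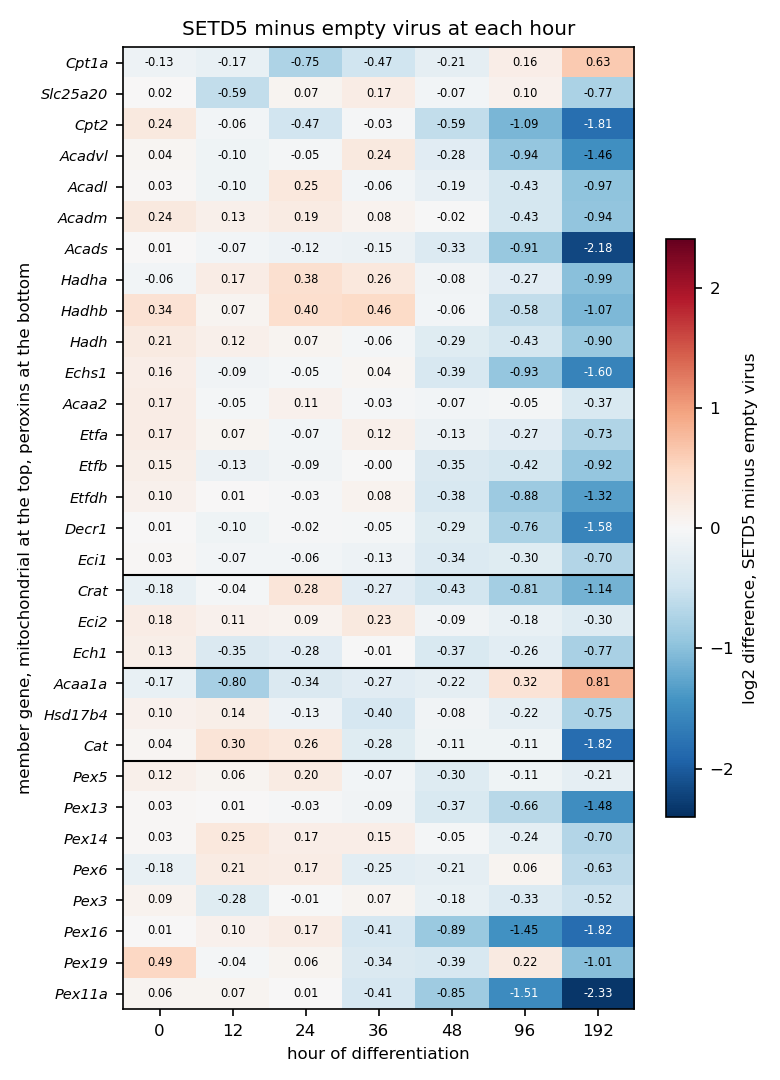
Log2 difference, SETD5 minus empty virus, for each of 31 member genes (rows) at each of 7 hours (columns), 1 pair of arrays per column. Blue is lower and red is higher with SETD5 virus, and horizontal lines divide mitochondrial genes, enzymes of both organelles, peroxisomal enzymes and peroxins. Each member is at or below -0.02 at 48 h, and Cpt1a and Acaa1a are above 0 at 192 h.

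The last step, again without a test, set the arms furthest apart. From 96 to 192 h, 30 of 31 members went up with empty virus (median 0.50 on the log2 scale), and 12 of 31 with SETD5 virus (median -0.09), against medians of -0.03 and 0.02 for all tested genes. With empty virus 28 members had their highest array at 192 h. With SETD5 virus only 8 did, and 11 peaked at 36 h. By 192 h, 20 of 31 members were over 2-fold above their own 0 h level with empty virus and none with SETD5 virus, where 6.61% and 1.61% of all tested genes were.

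Markers of preadipocytes and fat cells were measured in both arms. The 6 measured adipocyte markers of 8 listed (Adipoq, Fabp4, Cidec, Lpl, Pparg and Retn) summed to 1451 to 33588 with empty virus and 1490 to 19406 with SETD5 virus. At 96 h their sum was 23183 with empty virus and 9863 with SETD5 virus. At 192 h it was 33588 and 19406. The adipocyte markers, like the members, were lower with SETD5 virus at both hours, but from 96 to 192 h their sum went up in both arms, which the members' median did only with empty virus. Their part in the members' difference was not tested. The 7 preadipocyte or fibroblast markers summed to 16083 to 19601 and to 15368 to 22819. None of the 11 macrophage, endothelial, epithelial and muscle markers passed the filter, and no sum of theirs exceeded 65.7. Fewer fat cells in a dish and less of these transcripts per fat cell cannot be told apart in bulk RNA.

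The carnitine shuttle held both a member called late and the member with the smallest late difference. Intensities are given from here on in the order 0, 12, 24, 36, 48, 96 and 192 h. Cpt2, which returns the chain to coenzyme A inside the mitochondrion, read 119, 160.1, 261.5, 304, 389, 552 and 799 with empty virus. With SETD5 virus Cpt2 read 143, 153, 185, 297, 252, 251 and 217. The arms met at 36 h, and from 48 h on every empty virus array was above every SETD5 virus array. Its late difference was -0.88 ± 0.24 (SE, n = 4 hours, adjusted p = 0.0418), 1.84-fold lower. The call was lost with no filter (limma adjusted p = 0.0887) and without any 1 of the pairs other than 36 h (highest adjusted p = 0.145).
Cpt1a, the outer membrane enzyme that commits a chain to oxidation, did not follow. With empty virus it read 307, 134, 255, 366, 362, 267 and 196, and with SETD5 virus 279.7, 117, 145, 259, 310.4, 299 and 312. It dipped at 12 h in both arms (-1.13 ± 0.26 against 0 h over both arms, adjusted p = 0.00518) and at the last 2 hours stood higher with SETD5 virus, by 0.16 and 0.63. Its late difference was 0.03 ± 0.17 (adjusted p = 0.933) and turned negative when arrays were set to a common median (-0.01) or without the 96 h (-0.02) or 192 h pair (-0.18). Slc25a20, the carnitine carrier between these enzymes, ran from 184 to 351 with empty virus and from 154 to 327.5 with SETD5 virus. Its late difference of -0.14 did not pass, and without the 192 h pair it was 0.07.

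The acyl-CoA dehydrogenases, which differ in the chain length they take, were all called higher with empty virus in the mature hours. The short-chain enzyme Acads read 87.4, 58.0, 85.2, 147, 142.5, 274 and 694 with empty virus, against 88.1, 54.5, 77.2, 131, 110.2, 138 and 140.5 with SETD5 virus. The empty virus array at 192 h was far above the rest, and the SETD5 virus arm never passed 140.5. Its mature minus early difference was 2.31 ± 0.32 with empty virus (adjusted p = 0.00230) and 0.82 ± 0.32 with SETD5 virus (adjusted p = 0.260). The late difference of -0.89 ± 0.27 just missed (adjusted p = 0.0563).
The very-long, long and medium-chain enzymes Acadvl, Acadl and Acadm were 1.55, 1.51 and 1.56 higher on the log2 scale in the mature hours with empty virus, all called, though Acadl was not without the 24, 36, 48, 96 or 192 h arrays. Their late differences of -0.61, -0.41 and -0.33 did not pass. With 96 and 192 h taken as late, all 4 dehydrogenases were called lower (log2 differences of -1.20, -0.70, -0.68 and, for Acads, -1.55, adjusted p 0.000717 to 0.00674).

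The trifunctional protein, made of the Hadha and Hadhb subunits, carries out the later steps of the cycle on long chains. Hadhb, the thiolase subunit, read 328, 378, 405, 406, 574, 819 and 1381 with empty virus, and 421, 397.5, 538.5, 566, 549, 542 and 650.3 with SETD5 virus. The SETD5 virus arm was the higher one through 36 h and the lower one from 48 h on. Hadhb rose by 1.49 ± 0.24 in the mature hours with empty virus (adjusted p = 0.00462), and its head-to-head neighbour Hadha by 0.94 ± 0.21 (adjusted p = 0.0209), a call that Hadha lost without the 12, 36, 48 or 192 h arrays. Their late differences were -0.31 and -0.27 and did not pass. The other Hadhb probe set was called (-0.48, adjusted p = 0.0439 over all probe sets), but it is of a kind marked by the maker as able to bind several transcripts.
Hadh, Echs1 and Acaa2 complete the cycle for shorter chains. With empty virus in the mature hours Hadh was 1.25 higher and Acaa2 1.23 higher, both called (Acaa2 not without the 24, 96 or 192 h arrays), and Echs1 1.05 (adjusted p = 0.0633). Echs1 went from 383 at 0 h to 1505 at 192 h with empty virus and from 431 to 487 with SETD5 virus. Acaa2, the thiolase for shorter chains, had a late difference of only -0.13, and with 96 and 192 h as late it was still not called (-0.21, adjusted p = 0.209), while Hadh and Echs1 were (-0.66 and -1.27).

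The electron transfer flavoprotein subunits Etfa and Etfb and its dehydrogenase Etfdh all rose with empty virus. Etfdh, which passes the electrons to ubiquinone, read 333, 359.9, 489.9, 504, 669, 906 and 1295 with empty virus and 358, 363, 478, 533, 510.1, 486 and 509 with SETD5 virus. The SETD5 virus arm stayed between 478 and 533 from 24 h on. The mature minus early difference was 1.44 ± 0.22 (adjusted p = 0.00375) with empty virus and 0.32 ± 0.22 (adjusted p = 0.452) with SETD5 virus. Etfa and Etfb rose by less, 0.92 and 0.85, and lost these calls without the 12, 36, 48 or 192 h arrays.

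Decr1 and Eci1 prepare unsaturated chains for the cycle. Decr1, a dienoyl-CoA reductase, read 570.0, 399, 494, 712.5, 691, 1079.8 and 1999.8 with empty virus and 576, 372, 486, 688, 563, 631 and 659 with SETD5 virus. Up to 36 h the arms lay within 0.10 of each other on the log2 scale, and at 192 h they were 1.58 apart. Decr1 rose by 1.57 ± 0.26 in the mature hours with empty virus (adjusted p = 0.00596), and its late difference of -0.67 ± 0.20 just missed (adjusted p = 0.0574). The other Decr1 probe set had a smaller late difference (-0.20, limma adjusted p = 0.251 over all probe sets).
Eci1, an enoyl-CoA isomerase, moved less but more evenly. It read 503, 506, 501, 625, 773, 772 and 964 with empty virus and 514, 480.0, 480.2, 570.3, 609, 626 and 585 with SETD5 virus. It was lower with SETD5 virus at all 4 late hours, and its late difference of -0.37 ± 0.10 was called (adjusted p = 0.0415), 1.29-fold. The call was lost with no filter (limma adjusted p = 0.0881) and without any 1 of the pairs other than 36 h (highest adjusted p = 0.108).

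**Figure D3:**
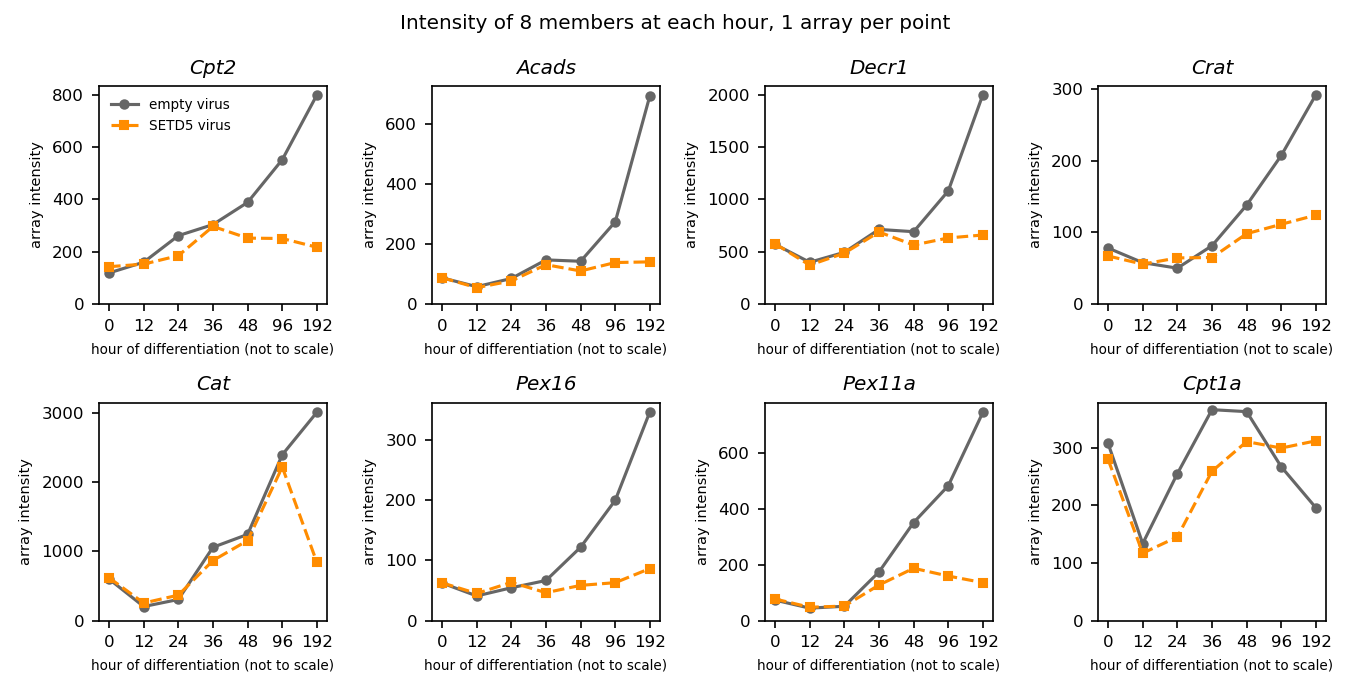
Array intensity (linear, from 0) of 8 member genes at 7 hours, with empty virus (grey circles) and SETD5 virus (orange squares), 1 array per point and no error bar since no hour has a replicate. The hours are evenly spaced and not to scale. The arms lie close together up to 24 h except for Cpt1a and Cpt2, and apart at 192 h, where SETD5 virus is lower for each gene but Cpt1a (196 with empty virus, 312 with SETD5 virus).

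Among the enzymes with forms in both organelles, only Crat, the carnitine acetyltransferase, had a late difference that was called. Crat read 78.2, 57.8, 50.1, 81.4, 138, 207 and 292 with empty virus and 67.1, 55.7, 64.4, 64.9, 98.2, 111 and 124 with SETD5 virus. Both arms read highest at 192 h, and there the SETD5 virus array was still below the 48 h empty virus array. The late difference was -0.66 ± 0.14 (adjusted p = 0.0199), 1.58-fold lower, called without each pair of arrays in turn except that of 96 h (adjusted p = 0.0848). The other Crat probe set gave -0.74 and was not called (limma adjusted p = 0.0951 over all probe sets).
Eci2, an isomerase, was the member with the second smallest late difference. It read 645, 426, 567, 723, 734, 848 and 862 with empty virus and 733, 461, 603, 849.7, 687, 748 and 694.5 with SETD5 virus. The SETD5 virus arm was the higher one through 36 h, with a log2 difference of 0.23 there, and the lower one from 48 h on, reaching -0.30 at 192 h. Over the 4 late hours the difference was -0.09 ± 0.09 (adjusted p = 0.564). Ech1, a dienoyl-CoA isomerase, rose by 1.19 in the mature hours with empty virus (adjusted p = 0.0408), a call it lost without the 36, 48, 96 or 192 h arrays. It was lower with SETD5 virus at all 4 late hours, with a late difference of -0.35 that did not pass. With 96 and 192 h as late it was called lower (-0.51, limma adjusted p = 0.0405).

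The peroxisomal enzymes gave 3 unlike patterns. Catalase, which destroys hydrogen peroxide, read 601, 203, 305, 1061, 1247, 2399 and 3014 with empty virus. With SETD5 virus Cat read 619.6, 254, 368, 869, 1158, 2221 and 840.4. The arms ran together through 96 h, dip at 12 h included, and at 192 h the SETD5 virus array was lower than at 96 h (log2 difference -1.39) while the empty virus array was higher. Cat rose by 2.94 ± 0.50 with empty virus (adjusted p = 0.00633), and the 1.78 ± 0.50 with SETD5 virus did not pass (adjusted p = 0.168). The late difference was -0.58 ± 0.25 (adjusted p = 0.140), and its second probe set gave -0.64 with 2235 and 659 at 192 h.
Hsd17b4, the multifunctional enzyme of the peroxisomal cycle, ran from 294 to 956 with empty virus and from 326 to 574 with SETD5 virus. It rose by 1.07 with empty virus (adjusted p = 0.0250), a call it lost without the 12, 24, 36, 48 or 192 h arrays, and its late difference was -0.36 (adjusted p = 0.0616). Acaa1a, the peroxisomal thiolase, stayed dim, from 57.3 to 103 with empty virus and 40.9 to 139 with SETD5 virus, and was higher with SETD5 virus at 96 and 192 h, by 0.32 and 0.81. With these hours as late it was the only member called higher (0.57 ± 0.16, adjusted p = 0.0277, 15.8% of tested genes called higher). The second Acaa1a probe set went the other way, from 57.9 to 140.2 between 0 and 192 h with empty virus and from 69.6 to 81.4 with SETD5 virus. Both Acaa1a probe sets are of a kind marked by the maker as able to bind several transcripts, as are the main ones of Hadh, Hsd17b4 and Pex6, so the direction for Acaa1a is uncertain.

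Of the peroxins that import matrix proteins, only Pex13 was called in the late hours. Pex13, part of the docking complex in the peroxisomal membrane, read 406, 595, 616, 914, 1026, 1093 and 1571 with empty virus and 416, 599, 602, 858, 788, 687 and 552 with SETD5 virus. The arms ran together to 36 h, after which the empty virus values were higher still and the SETD5 virus values lower at each hour. The late difference was -0.65 ± 0.18 (adjusted p = 0.0474), 1.57-fold lower. It lost the call with quantile normalization (adjusted p = 0.0590), an offset of 4 (adjusted p = 0.0557) and no filter (adjusted p = 0.0985). Pex13 also lost it without any 1 of the pairs other than 36 h (highest adjusted p = 0.138). Its docking partner Pex14 rose by 0.81 with empty virus (adjusted p = 0.00701), with a late difference of -0.21 that did not pass. The import receptor Pex5 and the ATPase Pex6 were 0.41 and 0.56 higher in the mature hours with empty virus and did not pass on their main probe sets. Both other Pex6 probe sets were called higher there (0.75 and 0.47, limma adjusted p = 0.0196 and 0.0489 over all probe sets). The other Pex5 probe set was not (0.25, adjusted p = 0.388).

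Pex16, Pex3 and Pex19 insert membrane proteins, and Pex16 stood out. Pex16 read 62.5, 41.0, 54.6, 66.7, 122, 200.2 and 347.5 with empty virus and 62.8, 45.1, 63.6, 46.4, 58.6, 63.1 and 86.6 with SETD5 virus. The SETD5 virus arrays ran from 45.1 to 86.6, and some lay under 50, where the offset holds the fold down. The mature minus early difference was 2.04 ± 0.28 (adjusted p = 0.00226) with empty virus and 0.31 ± 0.28 (adjusted p = 0.550) with SETD5 virus.
The late difference of Pex16 was -1.14 ± 0.19 (adjusted p = 0.00885), 2.21-fold lower, and was called without each pair of arrays in turn. Pex3 and Pex19 were 0.92 and 0.80 higher in the mature hours with empty virus and did not pass on their main probe sets. The other Pex3 probe set was called higher there (1.29, limma adjusted p = 0.00763 over all probe sets). Its late difference of -0.49 did not pass (adjusted p = 0.102). On the main probe sets the log2 differences between the arms at 192 h were -0.52 for Pex3 and -1.01 for Pex19. Their late differences of -0.24 and -0.38 did not pass either.

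Pex11a, which elongates peroxisomes for division, moved more than any other member. Pex11a read 73.3, 44.6, 51.3, 174, 351, 483 and 746.5 with empty virus and 77.4, 47.8, 52.0, 127, 187.5, 159.6 and 136 with SETD5 virus. The arms were alike to 24 h, and over 48, 96 and 192 h they did not overlap, the SETD5 virus arm being highest at 48 h and the empty virus arm at 192 h. Pex11a rose by 3.11 ± 0.31 with empty virus (adjusted p = 0.000597), 8.64-fold, and by 1.14 ± 0.31 with SETD5 virus, which did not pass (adjusted p = 0.166). The late difference was -1.27 ± 0.24 (adjusted p = 0.0138), 2.42-fold lower, and was called without each pair in turn except that of 96 h (adjusted p = 0.0656). Its second probe set gave a late difference of -1.44 (adjusted p = 0.00991 over all probe sets). Pex11a had no match to the motif in the stretch printed above.

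Set side by side, the organelles had similar medians. The median late difference was -0.41 over the 17 mitochondrial genes, -0.35 over the 3 enzymes of both organelles, -0.36 over the 3 peroxisomal enzymes and -0.32 over the 8 peroxins. At 192 h the medians were -0.97, -0.77, -0.75 and -0.86. In the mature hours with empty virus the medians were 1.25, 1.19, 1.07 and 0.87. The groups differ in size and no test was made between them. Without Pex11a, the median of the other peroxins at 192 h was -0.70.
In time the medians of the groups differed more. At 12 h with empty virus the median change from 0 h was -0.68 for the peroxisomal enzymes and -0.51 for those of both organelles, against -0.28 for peroxins and -0.11 for mitochondrial genes, and at 24 h -0.69, -0.18, -0.18 and 0.03. With SETD5 virus the 12 h medians were -0.89, -0.65, -0.27 and -0.22. In the 2 groups of 3 genes a median is the value of 1 gene. For the peroxisomal enzymes it was the uncertain Acaa1a at 24 h with empty virus and at 12 h with SETD5 virus. All 3 of them were lower at 12 h than at 0 h in both arms. Over both arms, 8 members were called lower at 12 h against 0 h (Cpt1a, Acadl, Acaa2, Eci2, Ech1, Hsd17b4, Cat and Pex3), where 27.9% of all tested genes were, and none higher (19.9%). At 24 h only Acaa2 was called lower (21.9% of tested genes), with 2 members without the 12 h arrays (20.9%) and 6 without those of 192 h (26.5%). Later hours against 0 h called 4 members higher at 36 h (12.4% of tested genes), 8 at 48 h (14.4%), 8 at 96 h (6.12%) and 18 at 192 h (7.30%). Without the 192 h arrays these were 12, 16 and 20 at 36, 48 and 96 h, where 16.1%, 19.0% and 10.5% of tested genes were called higher. At 48 h 5 were called without the 36 h arrays (13.1%), and at 96 h 4 without those of 48 h (5.38%) and 5 without those of 12, 24 or 36 h (5.25% to 5.46%).

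**Figure D4:**
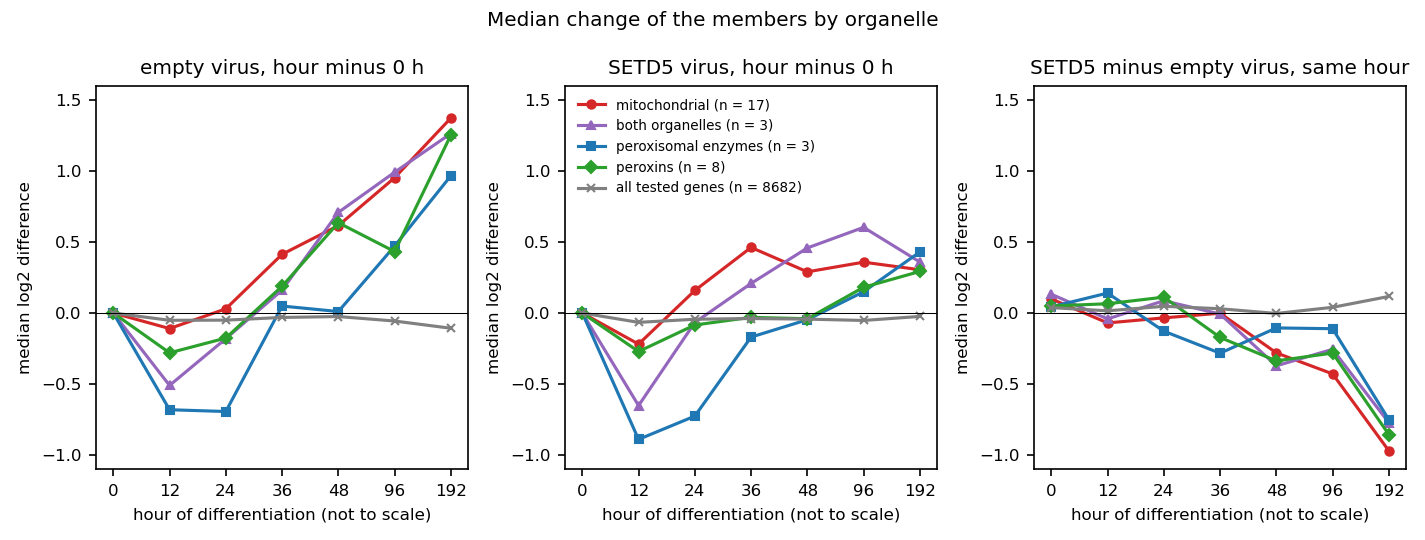
Median log2 difference of the members by organelle group over 7 hours (evenly spaced, not to scale), as each hour minus 0 h with empty virus (left) and SETD5 virus (middle) and as SETD5 minus empty virus at the same hour (right). Grey crosses are the median of all 8682 tested genes. The groups reach 0.97 to 1.37 at 192 h with empty virus and 0.29 to 0.43 with SETD5 virus.

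Other probe sets of the members and other genes of the pathway were set beside them. Of 17 further probe sets that passed the filter over 14 members, 16 had the sign of the main one in the late difference, Acaa1a being the exception. With adjustment over all probe sets, 12 of them were called higher in the mature hours with empty virus. The share of all probe sets called higher there is not given here. The further probe sets read the same RNA and are no independent samples. A list of 50 other fatty acid oxidation and peroxisome genes had 33 tested. In the mature hours with empty virus 11 of them were called higher and 1 lower, with a median of 0.55. Over all tested genes 5.25% were called higher and 3.29% lower there. With SETD5 virus none of the 33 was called, where 0.184% of all tested genes were. At an unadjusted limma p under 0.05 there were 4 of the 33 and 1429 of the 8682 tested genes.
In the late hours 28 of these 33 were lower with SETD5 virus, with a median of -0.21, where 3643 of all 8682 tested genes were lower. Only 1 was called in each direction, where 4.56% of all tested genes were called lower and 7.43% higher. Scp2, the peroxisomal thiolase and sterol carrier, was lower (-0.91 ± 0.19, adjusted p = 0.0176). Cpt1c, the carnitine palmitoyltransferase best known from neurons, was higher (0.72 ± 0.09, adjusted p = 0.00427), and in the mature hours with empty virus it fell by 0.98 on the log2 scale (adjusted p = 0.0267).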

How the data were processed

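The deposited values are linear intensities from Affymetrix Mouse Genome arrays, 1 per probe set and array, which the authors made as average differences with the GeneChip Analysis Suite. On every array the mean left after trimming 2% at each end was 100.0, so the authors had scaled the arrays alike. No log had been taken. Probe sets with exactly 1 gene symbol in the platform annotation (34944 of 45100) were kept, and the brightest per gene was used.

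The intensities with 16 added were put on the log2 scale and fitted with limma 3.58.1 in R 4.3.3 (two-sided), with Benjamini-Hochberg adjustment over all 8682 tested genes. The early and late SETD5 effects shared 1 model with hour as a block. The mature minus early change used the hours of a window as replicates. Between 88.4% and 93.8% of tested genes reached 50 on each array, no arrays were identical, and the number of arrays limits the precision. Groups came from the virus in the labels.

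The members and lists were chosen with earlier results of these data known. Values by array are given for members called late, for the largest mature change of each role and for the 2 smallest late differences. Alternatives were other scalings, offsets, filters, windows, priors, no block, every probe set and each hour left out. Protein sequences were not used here.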

Additional observations from a re-analysis of the deposited data

Results flagged for a closer look

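In 2 of the 31 tested members the SETD5 minus empty virus difference at 192 h lay far from those of the other 6 hours. Chance passes this test in about 1 of 20 groups, so a count this small among 31 members can arise by chance. The share over all tested genes was not computed. For Acads the log2 difference was -2.18 at 192 h, with a gap to the nearest hour of 0.580 of the whole range. For Cat it was -1.82, with a gap of 0.725 of the range.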

How the results depend on the processing

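Of 1054 values of single members under an alternative, 920 kept their direction and their side of the threshold, 77 lost a call, 49 gained one and 8 changed sign. The late count of 6 members became 3 without the filter, 23 with 96 and 192 h as late, 16 with 48 to 192 h as late and 1 to 16 when each hour was left out. Late minus early went from 0 to 16 and 1 with these windows, and to 0 to 1 with each hour left out. Leaving out each hour gave 2 to 27 members called higher in the mature hours with empty virus and 0 to 7 with SETD5 virus. Against 0 h it gave 1 to 6 lower at 24 h, 4 to 12 higher at 36 h, 5 to 16 at 48 h and 4 to 20 at 96 h. At 24 h a common median gave 0 (limma, 5 at an unadjusted p under 0.05). At 48 h no filter gave 4, and at 96 h an offset of 64 gave 5, no filter 4 and every probe set 5. The share of all tested genes called moved as well. It was 11.4% and 9.23% lower with the 2 later windows, against 4.56%. In the mature hours with SETD5 virus it was 0.184% in either direction, and 13.8% higher without 0 h. For the other scalings, offsets and filters, every probe set and the count of 27 it is not given here.

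Without the replicate block, which here pairs the arms by hour, limma called 0 members late (13 at an unadjusted p under 0.05). The share of all tested genes at that level is not given here. The deviations of the paired arrays correlated at 0.71 to 0.90 at every hour.

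Signs that changed were those of Cpt1a late (common median -0.0118, without 96 h -0.0184, without 192 h -0.18), Slc25a20 late (0.0655 without 192 h), Acaa1a late (-0.0566 without 192 h), and, in the mature hours with empty virus, Cpt1a (-0.27 without 12 h, -0.16 without 96 h) and Acaa1a (0.0206 without 0 h). The causes were not tested. With 1 array per arm and hour, the precision rests on the spread between hours or, for tests against 0 h, between the arms. Dim members such as Pex16 and Acaa1a have folds held down by the offset.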
